A study of Mus musculus with 18 samples.

Results

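The genes described here belong to the ATF4 and endoplasmic reticulum (ER) stress responses, 46 genes named by symbol, taken from a table of 15288 genes in 18 RNA sequencing libraries of mouse cells. The set is a list of gene names, with no threshold on a measured value. The genes and their roles were chosen with earlier results of these data known. Of the 46, 45 were found in the table by symbol, and the antisense transcript Vldlr-as was not analysed here. The 45 were grouped by role. An ATF4 branch held 24 genes, made up of stress transcription factors, feedback and effector genes, secreted factors and enzymes of serine, one-carbon and amino acid metabolism. An ER branch held 21 genes, made up of the stress sensors, ER chaperones and folding enzymes, and genes of ER-associated degradation. Of these 45, 44 reached the mean of 1 CPM (a read count scaled to a common library total) that was set for testing. Fgf21, which encodes a secreted metabolic hormone of the stress response, did not, with at most 0.283 CPM in any library. It is not part of the counts below.

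The study crossed 2 siRNAs with 3 treatments in cultured cells, with 3 libraries in each of the 6 groups. The groups were siCYP1B1 with 16aOHE, siCYP1B1 with E2, siCYP1B1 with vehicle, scrambled siRNA with 16aOHE, scrambled siRNA with E2, and scrambled siRNA with vehicle. CYP1B1 is a cytochrome P450 enzyme that oxidizes estrogens, E2 is estradiol, and 16aOHE is the common abbreviation for a hydroxylated estrone, a product of estradiol metabolism. Both estrogens were given at 1 uM for 24 hours in medium with 5% serum, starting 24 hours after a lipid transfection that all cells received, controls included. The design addressed what the estrogens do in cells given siRNA against the enzyme and in cells given scrambled siRNA. Whether the 3 libraries of a group are separate cultures is not stated, so the p-values describe the spread between these libraries, which may be technical.

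In the integrated stress response, kinases that sense amino acid shortage, unfolded protein or other strain phosphorylate the initiation factor eIF2, which slows translation in general and favours translation of ATF4. ATF4, often paired with C/EBP family proteins, then activates genes for amino acid synthesis, transport and tRNA charging, and also regulators that shape the response, such as CHOP (Ddit3) and TRIB3. The unfolded protein response of the ER shares the kinase PERK (Eif2ak3) with that pathway. It has a separate part, run by IRE1 (Ern1) with XBP1 and by ATF6, which raises chaperones such as BiP (Hspa5) and the machinery that removes misfolded protein. Because ATF4 is controlled mainly through translation and the sensors through their activity, the RNA levels given here do not measure the state of either protein.

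The depth differed between libraries, with 1 CPM standing for about 14.1 reads in siCYP1B1 16aOHE library 1 and about 38.5 reads in scrambled 16aOHE library 2. Cyp1b1, the siRNA target, averaged 90.1 ± 1.39 CPM in siCYP1B1 cells and 106 ± 1.25 CPM in scrambled cells with 16aOHE, 103 ± 1.95 and 118 ± 1.06 CPM with E2, and 81.5 ± 0.724 and 92.2 ± 3.58 CPM with vehicle (SD, n = 3 each). The log2 difference averaged over the treatments was -0.20 (limma adjusted p = 5.83e-08). Most of the Cyp1b1 RNA thus remained in siCYP1B1 cells, and protein levels are not given here. The cells are labelled pulmonary microvascular endothelial cells, whereas the series title names pulmonary vascular smooth muscle cells. Of 14 endothelial markers 8 were found, and over all 18 libraries Pecam1, Vwf and Tek averaged 0.0482, 0.0306 and 0.824 CPM, Kdr, Eng and Esam 4.37, 7.76 and 18.9 CPM, and Flt1 and Cd34 70.03 and 107 CPM. Of the 8 smooth muscle markers, Myh11, Cnn1, Lmod1 and Des averaged under 1 CPM (0.0668 to 0.727), Tagln and Acta2 2.66 and 20.5 CPM, and Smtn and Cald1 90.1 and 965 CPM. Of the 10 mesothelial and epithelial markers, Msln, Upk1b, Upk3b, Krt19, Wt1 and Lrrn4 averaged 85.8 to 1521 CPM, whereas Krt8, Epcam, Cdh1 and Krt18 averaged 0.343 to 3.87 CPM. Col1a1 and Col3a1, of the 10 fibroblast and pericyte markers, averaged 1946 and 2488 CPM, and Lum and Rgs5 0.0428 and 0.0611 CPM. Each list was thus mixed, with the defining endothelial markers Pecam1 and Vwf near 0, and the cells are called here by their treatment only.

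Promoter letters were examined because the branches differ in the factors known to bind them. RefSeq windows on GRCm38.p6, from 250 bases before to 50 bases after a gene start, were matched by symbol for 40 of the 46 genes. Aldh1l2, Atf6, Cth, Hyou1, Manf and Vldlr-as were not matched. Both strands were searched for TGATGNAA, a form of the C/EBP-ATF element bound by ATF4 with C/EBP partners. It was present in 9 of the 40 genes (22.5%), against 4.51% of the 27025 genes with windows. Of the 9, 8 were among the 22 matched ATF4-branch genes and 1, Herpud1, was among the 18 matched ER-branch genes. The ER stress element, searched as CCAAT followed after 9 bases by CCACG and known to be bound by NF-Y with ATF6 or XBP1, was present in 7 of the 40 (17.5%), against 0.14% of all genes. All 7 were ER-branch genes (Calr, Creld2, Dnajc3, Hsp90b1, Hspa5, Pdia6 and Syvn1). A related element, ATTGG followed after 1 base by CCACG, was present in Dnajb11 and Herpud1 (5.0%, against 0.04%). No match of one motif overlapped a match of another in these genes. A match describes the letters and is not evidence of binding. The list was made of known genes of these responses, so these shares are not an independent finding about it.

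The C/EBP-ATF matches of 5 ATF4-branch genes that were called higher with E2 in both siRNAs are shown first, as 30-base stretches on the gene's own strand with the motif, or its reverse complement, in capitals.
Chac1 (chr2:119351038-119351067): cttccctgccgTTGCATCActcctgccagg
Nupr1 (chr7:126625562-126625591): aaagggccagaTTGCATCAgacagggcttg
Asns (chr6:7693214-7693243): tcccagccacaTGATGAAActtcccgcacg
Pck2 (chr14:55540152-55540181): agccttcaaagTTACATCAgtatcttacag
Trib3 (chr2:152344028-152344057): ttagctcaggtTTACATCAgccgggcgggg
The ER stress elements of the chaperone genes Hspa5 and Dnajc3 and the degradation gene Syvn1 follow, in the same form, since none of these genes was called higher with E2.
Hspa5 (chr2:34772019-34772048): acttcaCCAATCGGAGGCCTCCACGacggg
Dnajc3 (chr14:118937821-118937850): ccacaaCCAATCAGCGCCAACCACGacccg
Syvn1 (chr19:6046526-6046555): tcgcaaCCAATCGGCGGTAGCCACGggaac
Of the 9 genes with the C/EBP-ATF letters, 8 were tested, and 6 of them were called higher with E2 in siCYP1B1 cells and 6 in scrambled cells, where 16.7% and 18.6% of all genes were called higher. All but Herpud1 were ATF4-branch genes, and of the 23 tested genes of that branch 15 and 16 were called higher. The counts for the letters are thus near those of the branch. Of the 7 genes with the ER stress element, 0 were called higher with E2 in either siRNA by limma, nor was any higher at an unadjusted p under 0.05, and Calr and Syvn1 were called lower in both. With so few genes, 0 of 7 is not far from the share over all genes.

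E2 raised a large part of the ATF4 branch and few of the ER chaperones. In siCYP1B1 cells 20 of 44 genes were called higher and 4 lower at a limma adjusted p under 0.05 (over all 11835 genes tested 27.5% were called, 16.7% higher and 10.8% lower). In scrambled cells 22 were called higher and 3 lower (30% of all genes, 18.6% higher and 11.4% lower). The ATF4 branch held 15 of the 20 in siCYP1B1 cells and 16 of the 22 in scrambled cells. Since genes and roles were chosen with earlier results known, the contrast with all genes is descriptive only. None of its 23 tested genes was called lower in either siRNA by limma, and at an unadjusted p under 0.05 the number lower was 0 in siCYP1B1 cells and 1 (Cebpg) in scrambled cells. Its median log2 difference was 0.348 in siCYP1B1 cells and 0.246 in scrambled cells, beside medians of 0.038 and 0.034 over all genes. In the ER branch, 5 genes were higher and 4 lower in siCYP1B1 cells, and 6 were higher and 3 lower in scrambled cells, with medians of -0.003 and 0.015. The 2 comparisons share no libraries, but the fit took the spread of each gene from all 18 libraries. In both, 18 genes were called higher, which is 90% of the 20 and 81.8% of the 22. The matching overlap over all genes is not given here, so these shares cannot be read as particular to the 44. Where leaving out 1 library or another setting ended a call of these 44 genes named below, this stands beside it, with libraries named by group and number.

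In bulk RNA, fewer cells of a type and less RNA per cell cannot be told apart. Summed marker levels also moved with E2. The 10 mesothelial and epithelial markers summed to 3022 to 3128 CPM with E2 and 3745 to 3907 CPM with vehicle in siCYP1B1 cells, and to 3800 to 4051 CPM with E2 and 4912 to 4995 CPM with vehicle in scrambled cells. The 10 fibroblast and pericyte markers summed to 3456 to 3576 CPM with E2 and 5233 to 5531 CPM with vehicle in siCYP1B1 cells, and to 4272 to 4785 CPM and 6563 to 6922 CPM in scrambled cells. The 8 endothelial markers in the table summed to 139.8 to 145.9 CPM with E2 and 194.2 to 196.6 CPM with vehicle in siCYP1B1 cells, and to 217 to 225 CPM and 266 to 305 CPM in scrambled cells. The 8 smooth muscle markers summed to 1062 to 1073 CPM with E2 and 1027 to 1063 CPM with vehicle in siCYP1B1 cells, and to 1095 to 1121 CPM and 1097 to 1116 CPM in scrambled cells. The sums of the first 3 lists were lower with E2 in every library, and the smooth muscle sums overlapped. Some sums rest mainly on a few abundant genes. Over all libraries Cald1 averaged 965 CPM in the smooth muscle list, and Flt1 and Cd34 70.03 and 107 CPM in the endothelial list. In the fibroblast and pericyte list Col1a1 and Col3a1 averaged 1946 and 2488 CPM. Single markers could differ from their sum. In scrambled cells 1 of the 6 tested fibroblast and pericyte markers was called higher with E2 and 4 lower (18.6% and 11.4% of all genes). The part of these sums in the results was not tested.

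**Figure D1:**
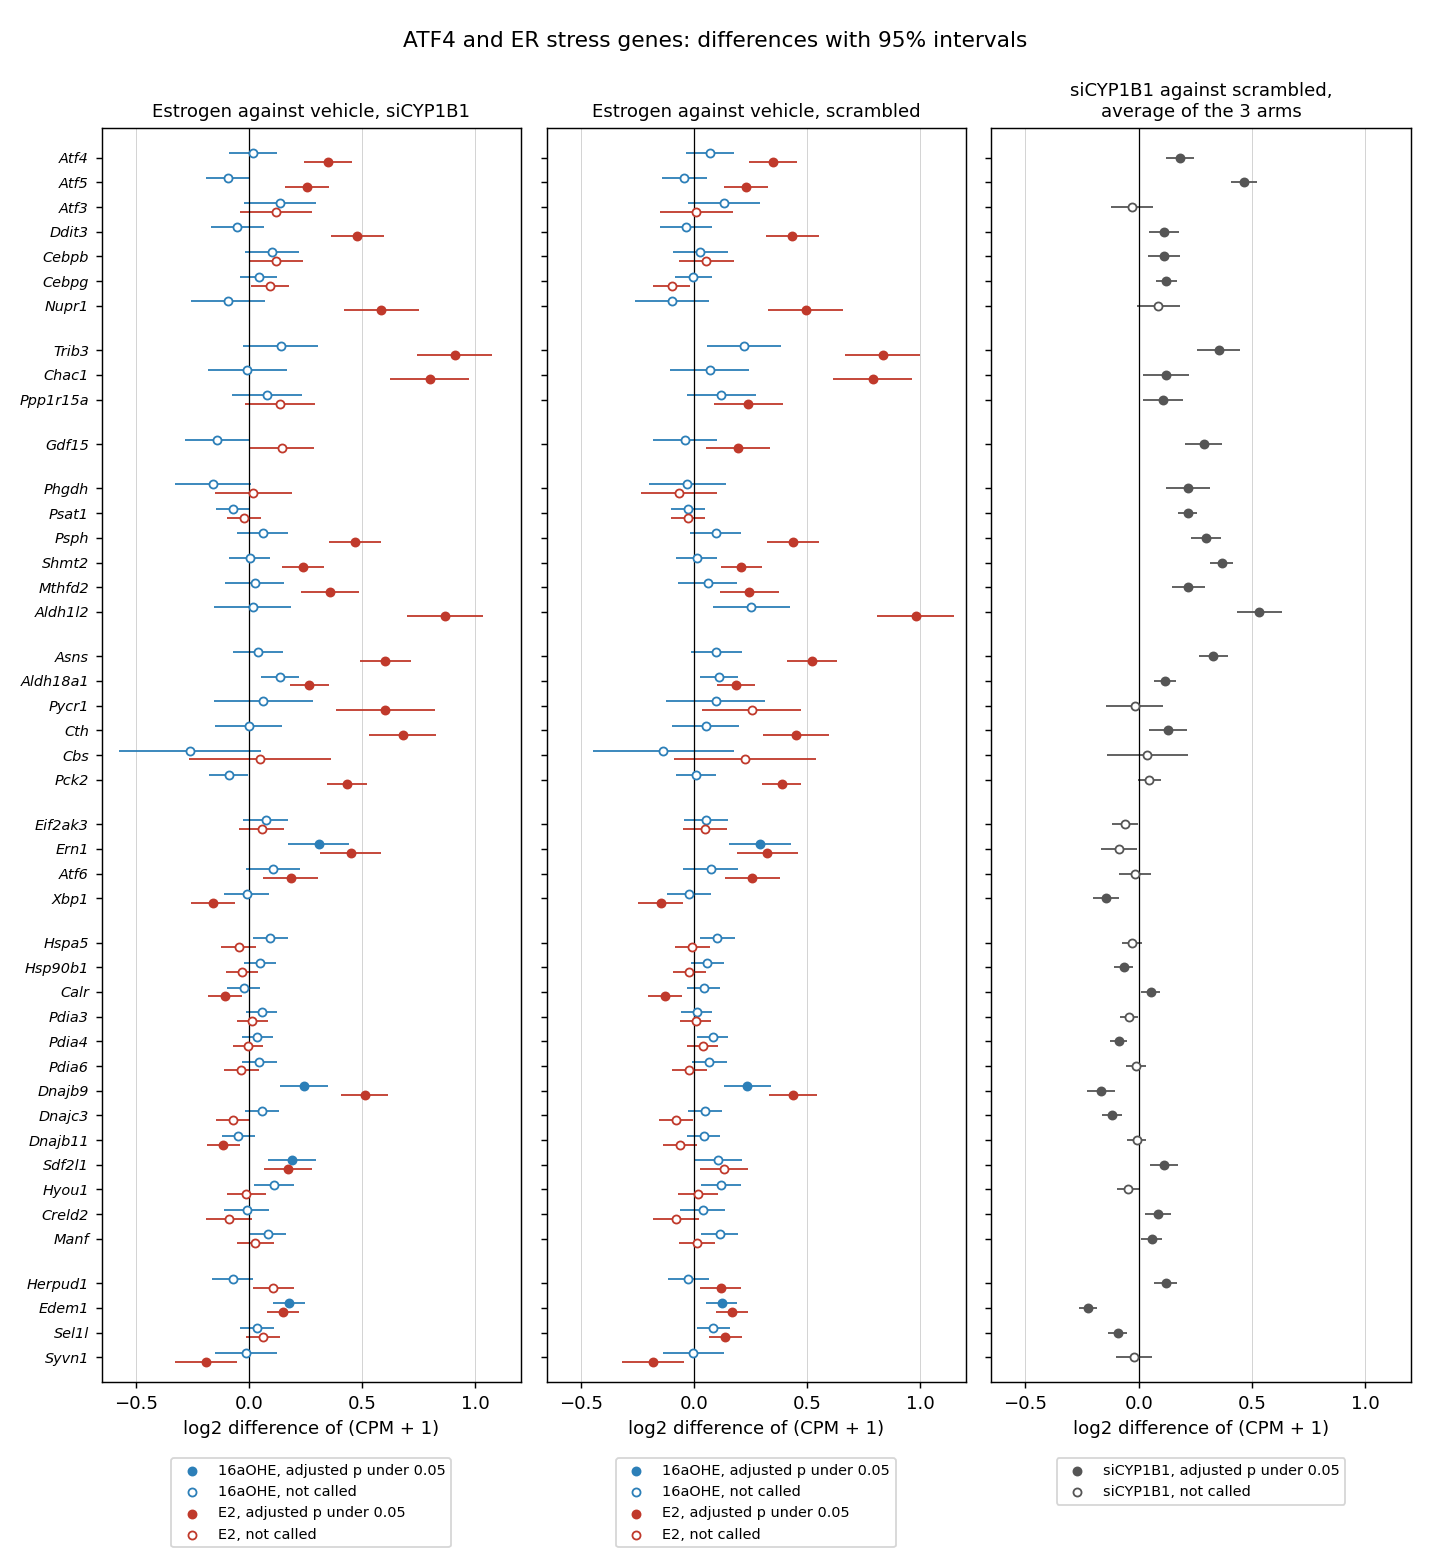
Log2 differences of the 44 tested genes, by role, with 95% intervals as bars, for 16aOHE and E2 against vehicle in siCYP1B1 cells (left) and scrambled cells (middle), and for siCYP1B1 against scrambled siRNA averaged over the 3 treatments (right); filled points have a limma adjusted p under 0.05. The ATF4-branch points for E2 reach 0.98 (Aldh1l2 in scrambled cells) while most chaperones lie near 0.

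Among the 7 transcription factors of the stress response, 4 rose with E2 in both siRNAs. Atf4 (mm10 chr15:80255184-80257545, plus strand) had 227, 228 and 235 CPM with 16aOHE, 299, 299 and 271 CPM with E2 and 237, 210.3 and 235 CPM with vehicle in siCYP1B1 cells. In scrambled cells it had 204, 203 and 217 CPM with 16aOHE, 263, 239 and 254 CPM with E2 and 207, 199.7 and 186 CPM with vehicle. Every E2 library was above every vehicle and 16aOHE library of the same siRNA, and the 16aOHE and vehicle libraries overlapped in both. Against vehicle, the log2 difference with E2 was 0.35 (SE 0.0508, limma adjusted p = 3.21e-05) in siCYP1B1 cells and 0.35 (SE 0.0508, adjusted p = 2.84e-05) in scrambled cells.

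Atf5 (chr7:44812256-44816658, minus strand), a relative of ATF4 that is also controlled through translation, had 145, 133 and 134 CPM with 16aOHE, 178, 182 and 166 CPM with E2 and 148, 139.8 and 152 CPM with vehicle in siCYP1B1 cells. With scrambled siRNA the values were 107, 98.8 and 101 CPM with 16aOHE, 126, 117 and 127 CPM with E2 and 103, 109 and 104 CPM with vehicle. E2 libraries lay above the others of their siRNA, and all 9 siCYP1B1 libraries lay above all 9 scrambled libraries. The log2 difference with E2 was 0.26 (adjusted p = 0.000376) in siCYP1B1 cells and 0.23 (adjusted p = 0.000883) in scrambled cells. Ddit3 (chr10:127290793-127296288, plus strand) encodes CHOP, a C/EBP-related factor tied to cell death under lasting stress. It had 56.3, 50.5 and 59.6 CPM with 16aOHE, 82.3, 81.8 and 76.9 CPM with E2 and 56.1, 55.3 and 60.8 CPM with vehicle in siCYP1B1 cells. The scrambled libraries had 50.3, 52.8 and 53.1 CPM with 16aOHE, 73.6, 71.8 and 72.0 CPM with E2 and 56.8, 52.4 and 51.0 CPM with vehicle. E2 again stood above the other treatments without overlap, with log2 differences of 0.48 (adjusted p = 2.04e-06) and, in scrambled cells, 0.44 (adjusted p = 6.3e-06).

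Nupr1 (chr7:126623246-126625470, minus strand), a small stress-induced chromatin protein, had 19.6, 16.0 and 16.95 CPM with 16aOHE, 29.0, 30.5 and 26.2 CPM with E2 and 19.4, 18.2 and 18.5 CPM with vehicle in siCYP1B1 cells. Scrambled cells had 17.6, 14.997 and 17.7 CPM with 16aOHE, 25.6, 25.9 and 25.5 CPM with E2 and 19.1, 16.9 and 17.9 CPM with vehicle. Its E2 libraries were above all the others, and the log2 difference with E2 was 0.58 (adjusted p = 1.23e-05) in siCYP1B1 cells and 0.49 (adjusted p = 7.75e-05) in scrambled cells. The remaining 3 factors were not called in the E2 comparisons. Atf3, another stress-induced factor, ranged over 12.4 to 16.3 CPM over the 18 libraries, with log2 differences of 0.12 (95% interval -0.04 to 0.28) in siCYP1B1 cells and 0.01 (-0.15 to 0.17) in scrambled cells. Cebpb and Cebpg, partners of ATF4, ranged over 131 to 169 and 79.4 to 98.1 CPM. The E2 differences of Cebpg were 0.09 in siCYP1B1 cells and -0.10 in scrambled cells. Atf5, Cebpb and Ddit3 overlap exons of genes on the opposite strand that are also in the table (Nup62 and Il4i1, Tmem189, and Mars). The sources used here do not say if reads were counted by strand, which leaves these values uncertain. The same holds for Aldh1l2, Hsp90b1, Manf, Pdia3, Pdia6, Ppp1r15a, Psph, Shmt2 and Syvn1.

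The 3 feedback and effector genes included 2 of the widest E2 differences. Trib3 (chr2:152337425-152344060, minus strand) encodes a pseudokinase that is induced by ATF4 and CHOP and restrains them. It had 14.1, 14.9 and 16.4 CPM with 16aOHE, 29.1, 26.4 and 24.1 CPM with E2 and 13.0, 13.9 and 14.0 CPM with vehicle in siCYP1B1 cells. Under scrambled siRNA it had 11.8, 12.5 and 12.7 CPM with 16aOHE, 18.4, 19.5 and 20.3 CPM with E2 and 11.4, 10.1 and 9.88 CPM with vehicle. The lowest E2 library was above the highest vehicle or 16aOHE library in each siRNA. The mean with E2 was 1.95-fold the vehicle mean in siCYP1B1 cells (log2 0.91, adjusted p = 3.64e-08) and 1.86-fold in scrambled cells (log2 0.83, adjusted p = 1.36e-07). Chac1 (chr2:119351242-119354327, plus strand) encodes an enzyme that degrades glutathione. It had 15.4, 17.6 and 14.2 CPM with 16aOHE, 28.5, 27.7 and 28.2 CPM with E2 and 16.2, 13.8 and 17.5 CPM with vehicle in siCYP1B1 cells. In scrambled cells it had 14.7, 15.1 and 15.1 CPM with 16aOHE, 28.0, 24.0 and 24.0 CPM with E2 and 13.8, 14.7 and 14.1 CPM with vehicle. The 16aOHE and vehicle libraries overlapped, well below E2, whose mean was 1.78-fold the vehicle mean in siCYP1B1 cells (log2 0.80, adjusted p = 4.78e-07) and 1.79-fold in scrambled cells (log2 0.79, adjusted p = 5.61e-07). Ppp1r15a encodes GADD34, the phosphatase subunit that reverses eIF2 phosphorylation, and ranged over 20.7 to 29.5 CPM. It was called higher with E2 in scrambled cells (log2 0.24, adjusted p = 0.0174), and that call was lost without scrambled E2 3 or scrambled vehicle 2 or 3 (adjusted p up to 0.0904). In siCYP1B1 cells its difference was 0.14 (95% interval -0.02 to 0.29).

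Gdf15, a secreted stress cytokine, averaged 95.98 ± 4.62 CPM with 16aOHE, 118 ± 9.26 CPM with E2 and 106 ± 5.73 CPM with vehicle in siCYP1B1 cells (SD, n = 3 each). In scrambled cells the means were 81.7 ± 7.83, 96.1 ± 5.16 and 83.8 ± 5.51 CPM in the same order. E2 raised it in scrambled cells (log2 0.20, adjusted p = 0.0327), a call that was lost without scrambled E2 2 or 3 or scrambled vehicle 2 or 3, after quantile normalization, after median-of-ratios scaling or without the variance trend (adjusted p up to 0.149). In siCYP1B1 cells the difference was 0.15 (95% interval 0.01 to 0.29) and was not called.

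**Figure D2:**
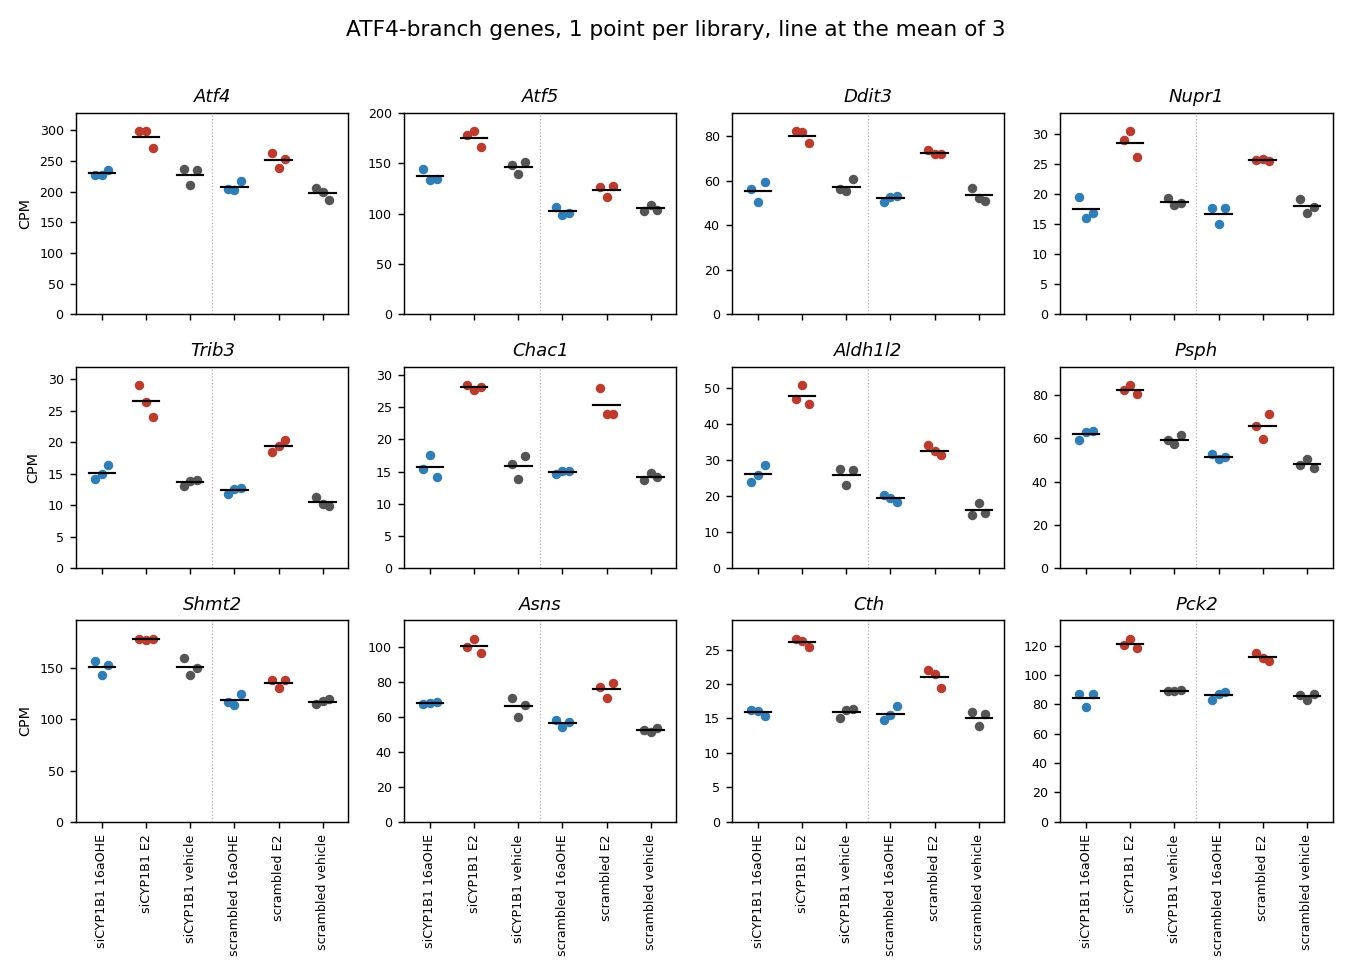
CPM of the ATF4-branch genes Atf4, Atf5, Ddit3, Nupr1, Trib3, Chac1, Aldh1l2, Psph, Shmt2, Asns, Cth and Pck2 in each library (points) with the mean of the 3 libraries (line), for siCYP1B1 cells with 16aOHE, E2 and vehicle and then scrambled cells in the same order. E2 points lie above their vehicle points in both siRNAs in each of these 12 panels, and the 16aOHE points lie below the E2 points. All 12 were called higher with E2 in both siRNAs. Among the genes not drawn, E2 and vehicle libraries overlap for Pycr1 in scrambled cells and for Gdf15 and Ppp1r15a in siCYP1B1 cells. They also overlap for Atf3, Cebpb, Cbs, Phgdh and Psat1, and Cebpg was lower with E2 in every scrambled library.

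Of the 6 enzymes of serine and one-carbon metabolism, 4 rose with E2 in each siRNA. Aldh1l2 (chr10:83487447-83534140, minus strand), the mitochondrial enzyme that oxidizes formyl-tetrahydrofolate, had 24.0, 25.8 and 28.8 CPM with 16aOHE, 47.1, 51.0 and 45.7 CPM with E2 and 27.4, 23.1 and 27.2 CPM with vehicle in siCYP1B1 cells. With scrambled siRNA the values were 20.3, 19.5 and 18.4 CPM with 16aOHE, 34.1, 32.6 and 31.4 CPM with E2 and 14.9, 18.2 and 15.4 CPM with vehicle. E2 libraries did not overlap the others of their siRNA. The E2 mean was 1.85-fold the vehicle mean in siCYP1B1 cells (log2 0.87, adjusted p = 1.13e-07) and 2.03-fold in scrambled cells (log2 0.98, SE 0.0814, adjusted p = 2.01e-08). Psph, the phosphatase that completes serine synthesis, averaged 82.6 ± 2.22 CPM with E2 and 59.4 ± 2.14 CPM with vehicle in siCYP1B1 cells, and 65.7 ± 5.91 and 48.2 ± 2.26 CPM in scrambled cells (SD, n = 3 each; log2 0.47 and 0.44). The mitochondrial folate enzymes Shmt2 and Mthfd2 rose as well, Shmt2 by 0.24 in siCYP1B1 cells and 0.21 in scrambled cells on the log2 scale, and Mthfd2 by 0.36 and 0.25. The first 2 enzymes of serine synthesis gave E2 differences near 0. Phgdh ranged over 40.9 to 64.1 CPM, with differences of 0.02 (95% interval -0.15 to 0.19) and -0.06 (-0.23 to 0.10). Psat1 ranged over 241 to 310.1 CPM, with differences of -0.02 (-0.10 to 0.05) in siCYP1B1 cells and -0.02 (-0.10 to 0.05) in scrambled cells. Phgdh has a processed pseudogene, Phgdh-ps1, that could share its reads.

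Of the 6 other enzymes, of amino acid and phosphoenolpyruvate metabolism, 5 rose with E2 in siCYP1B1 cells and 4 in scrambled cells. Asns (chr6:7675171-7693182, minus strand), asparagine synthetase, had 67.1, 67.7 and 68.2 CPM with 16aOHE, 100.1, 105 and 96.5 CPM with E2 and 70.9, 60.1 and 66.7 CPM with vehicle in siCYP1B1 cells. The scrambled libraries had 57.9, 53.9 and 56.9 CPM with 16aOHE, 76.9, 70.9 and 79.5 CPM with E2 and 52.3, 51.3 and 53.7 CPM with vehicle. E2 was above the other treatments in every library, with log2 differences of 0.60 (adjusted p = 4.8e-08) and, in scrambled cells, 0.52 (adjusted p = 3.87e-07). Cth (chr3:157894248-157925063, minus strand), which makes cysteine from cystathionine, had 16.2, 16.1 and 15.4 CPM with 16aOHE, 26.6, 26.2 and 25.4 CPM with E2 and 15.02, 16.3 and 16.4 CPM with vehicle in siCYP1B1 cells. Scrambled cells had 14.8, 15.4 and 16.8 CPM with 16aOHE, 22.1, 21.5 and 19.5 CPM with E2 and 15.9, 13.8 and 15.6 CPM with vehicle. Its E2 libraries stood apart in both siRNAs (log2 0.68, adjusted p = 4.43e-07, in siCYP1B1 cells and 0.45, adjusted p = 6.21e-05, in scrambled cells).

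Pck2 (chr14:55540266-55550017, plus strand), the mitochondrial enzyme that makes phosphoenolpyruvate, had 87.1, 78.1 and 86.8 CPM with 16aOHE, 120.2, 125 and 119 CPM with E2 and 89.0, 89.2 and 89.9 CPM with vehicle in siCYP1B1 cells. Under scrambled siRNA it had 82.9, 87.3 and 88.3 CPM with 16aOHE, 115, 112 and 109 CPM with E2 and 86.5, 83.1 and 86.8 CPM with vehicle. No E2 library overlapped the others, and the log2 differences were 0.43 (adjusted p = 1.67e-07) and, in scrambled cells, 0.39 (adjusted p = 8e-07). Pycr1 (chr11:120635712-120643769, minus strand) encodes the last enzyme of proline synthesis. It had 8.32, 8.44 and 9.39 CPM with 16aOHE, 13.7, 13.1 and 12.5 CPM with E2 and 9.12, 7.65 and 8.15 CPM with vehicle in siCYP1B1 cells. In scrambled cells it had 10.4, 9.64 and 9.41 CPM with 16aOHE, 13.0, 8.76 and 11.9 CPM with E2 and 8.82, 9.00 and 9.51 CPM with vehicle. The E2 libraries were the highest in siCYP1B1 cells (log2 0.60, adjusted p = 0.000225). In scrambled cells E2 library 2 was below all 3 vehicle libraries, and the difference of 0.26 (95% interval 0.04 to 0.48, adjusted p = 0.0708) was not called. Aldh18a1, the first enzyme of proline synthesis, rose by 0.27 in siCYP1B1 cells and 0.19 in scrambled cells (log2, E2 against vehicle). Cbs, which forms cystathionine, ranged over 2.03 to 4.07 CPM and was not called. Its intervals with E2 were -0.26 to 0.36 in siCYP1B1 cells and -0.09 to 0.54 in scrambled cells.

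In the ER branch, the cochaperone gene Dnajb9 and the sensor gene Ern1 carried the widest E2 differences. Dnajb9 (chr12:44205897-44210068, minus strand) encodes ERdj4, a BiP cochaperone that is a target of XBP1 and restrains IRE1. It had 38.7, 39.7 and 43.4 CPM with 16aOHE, 48.6, 50.1 and 48.4 CPM with E2 and 34.6, 34.2 and 33.6 CPM with vehicle in siCYP1B1 cells. With scrambled siRNA the values were 47.2, 47.7 and 44.0 CPM with 16aOHE, 53.7, 51.7 and 54.7 CPM with E2 and 40.6, 39.4 and 37.5 CPM with vehicle. The 3 treatments did not overlap in either siRNA, with E2 highest, 16aOHE between and vehicle lowest. The log2 difference with E2 was 0.51 (adjusted p = 2.09e-07) in siCYP1B1 cells and 0.44 (adjusted p = 1.59e-06) in scrambled cells. Ern1 (chr11:106397620-106487796, minus strand), the IRE1 sensor itself, had 97.5, 91.1 and 84.2 CPM with 16aOHE, 107, 96.8 and 96.7 CPM with E2 and 76.8, 72.5 and 70.2 CPM with vehicle in siCYP1B1 cells. The scrambled libraries had 109, 97.02 and 90.6 CPM with 16aOHE, 104, 106 and 93.0 CPM with E2 and 79.2, 83.2 and 78.4 CPM with vehicle. Both estrogens lay above vehicle in every library, and the 2 estrogens overlapped. The E2 differences were 0.45 (adjusted p = 2.99e-05) and, in scrambled cells, 0.32 (adjusted p = 0.000706).

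The other sensors differed among themselves. Atf6, the ER-bound transcription factor, rose with E2 by 0.19 in siCYP1B1 cells (adjusted p = 0.0215; lost without siCYP1B1 E2 2 or 3 or siCYP1B1 vehicle 1 or 3 or after median-of-ratios scaling, adjusted p up to 0.104) and by 0.26 in scrambled cells (adjusted p = 0.00202). Xbp1, the factor whose mRNA IRE1 splices, was called lower with E2, with log2 differences of -0.16 in siCYP1B1 cells (adjusted p = 0.0158) and -0.15 in scrambled cells (adjusted p = 0.0238). The siCYP1B1 call was lost without siCYP1B1 E2 3 or siCYP1B1 vehicle 1 or 3 (adjusted p up to 0.101), and the scrambled call was lost without scrambled E2 1 or scrambled vehicle 1 (adjusted p up to 0.138). The table does not separate spliced from unspliced Xbp1. Eif2ak3, which encodes PERK, ranged over 45.2 to 54.9 CPM with intervals of -0.04 to 0.15 in siCYP1B1 cells and -0.05 to 0.15 in scrambled cells for E2 against vehicle.

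Among the 13 chaperones and folding enzymes, 2 were called higher and 2 lower with E2 in siCYP1B1 cells, and 1 higher and 1 lower in scrambled cells. Hspa5 (chr2:34772090-34776529, plus strand), the ER chaperone BiP and a standard readout of the unfolded protein response, had 1315, 1469.7 and 1467 CPM with 16aOHE, 1268, 1309 and 1277 CPM with E2 and 1289.9, 1355 and 1332 CPM with vehicle in siCYP1B1 cells. Scrambled cells had 1412, 1451 and 1455 CPM with 16aOHE, 1324, 1322 and 1352 CPM with E2 and 1321, 1371 and 1325 CPM with vehicle. E2 and vehicle libraries overlapped in both siRNAs, and the differences were -0.04 (95% interval -0.12 to 0.03) in siCYP1B1 cells and -0.01 (-0.08 to 0.07) in scrambled cells. Hsp90b1 (GRP94), Pdia3, Pdia4, Pdia6, Dnajc3, Hyou1, Creld2 and Manf were not called with E2 in either siRNA. Calr, the lectin chaperone calreticulin, was called lower. It averaged 1709 ± 25.5 CPM with E2 and 1839 ± 16.0 CPM with vehicle in siCYP1B1 cells, and 1608 ± 78.9 and 1754 ± 9.11 CPM in scrambled cells (SD, n = 3 each). The siCYP1B1 call (log2 -0.11, adjusted p = 0.03) was lost without siCYP1B1 E2 1 or 3 or siCYP1B1 vehicle 1, 2 or 3, without the filter on low values, after quantile normalization or without the variance trend (adjusted p up to 0.279). The scrambled call (log2 -0.13, adjusted p = 0.00962) was lost without scrambled E2 2 or after quantile normalization (adjusted p up to 0.541). A processed pseudogene, Calr-ps, could share reads with Calr. In siCYP1B1 cells the J protein gene Dnajb11 was called lower (log2 -0.11, adjusted p = 0.0211), lost without siCYP1B1 E2 2 or 3 or siCYP1B1 vehicle 3 (adjusted p up to 0.137). Sdf2l1, a partner of J proteins, was called higher (log2 0.17, adjusted p = 0.0154), lost without siCYP1B1 E2 3 or siCYP1B1 vehicle 1 or after median-of-ratios scaling (adjusted p up to 0.113).

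**Figure D3:**
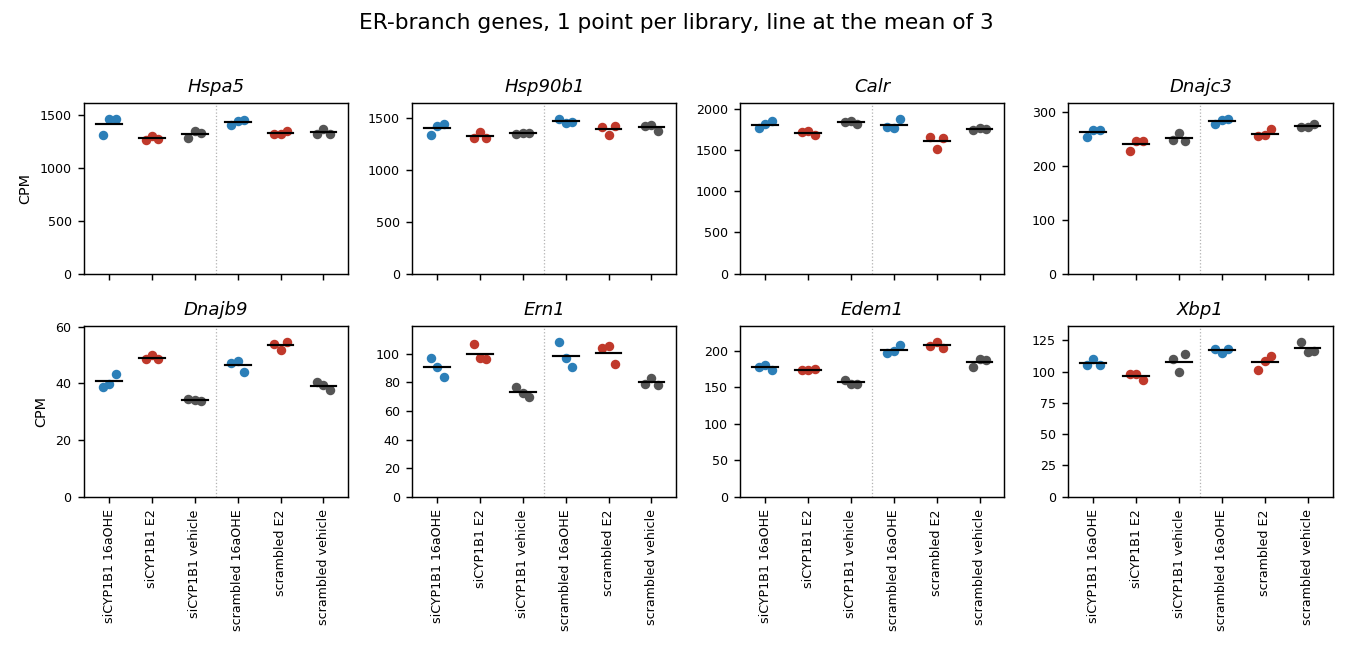
CPM of 8 ER-branch genes in each library (points) with the mean of the 3 libraries (line), for siCYP1B1 cells with 16aOHE, E2 and vehicle and then scrambled cells in the same order. Dnajb9 and Ern1 are above vehicle with both estrogens, while Hspa5 stays between 1268 and 1469.7 CPM in all libraries.

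Of the 4 genes of ER-associated degradation, Edem1 (chr6:108828641-108859356, plus strand), which marks misfolded glycoproteins for removal, rose with E2 in both siRNAs. It had 177, 181 and 173 CPM with 16aOHE, 173, 173 and 175 CPM with E2 and 160.1, 155 and 154 CPM with vehicle in siCYP1B1 cells. Under scrambled siRNA it had 197, 199 and 208 CPM with 16aOHE, 206, 213 and 204 CPM with E2 and 178, 188 and 187 CPM with vehicle. Both estrogens were above vehicle without overlap, and E2 gave 0.15 (adjusted p = 0.00199) in siCYP1B1 cells and 0.17 (adjusted p = 0.000641) in scrambled cells. Sel1l and Syvn1 encode the adaptor and the ubiquitin ligase of one degradation complex. Sel1l was called higher with E2 in scrambled cells (log2 0.14, adjusted p = 0.00528), and lost the call after median-of-ratios scaling (adjusted p up to 0.0553). In siCYP1B1 cells its difference was 0.06 (95% interval -0.01 to 0.14). Syvn1 was called lower in both, at -0.19 (adjusted p = 0.0339; lost without siCYP1B1 E2 2 or 3 or siCYP1B1 vehicle 1 or without the variance trend, adjusted p up to 0.165) in siCYP1B1 cells and -0.18 (adjusted p = 0.0427) in scrambled cells. The scrambled call was lost in 9 of the 24 other settings, among them without scrambled E2 1 or 3 or scrambled vehicle 1, 2 or 3 (adjusted p up to 0.177). Herpud1, an ER membrane protein of the same machinery and also an ATF4 target, was called higher in scrambled cells (log2 0.12, adjusted p = 0.0447). That call was lost in 14 of the 24 other settings, among them without scrambled E2 2 or 3 or scrambled vehicle 1, 2 or 3 (adjusted p up to 0.196).

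With 16aOHE few genes were called, among the 44 and over all genes. In siCYP1B1 cells 4 of 44 genes were called higher and 0 lower against vehicle (5.4% of all genes, 2.53% higher and 2.86% lower), and in scrambled cells 3 were called higher and 0 lower (3.84% of all genes, 1.76% higher and 2.08% lower). At an unadjusted p under 0.05, limma gave 8 higher and 2 lower in siCYP1B1 cells and 12 higher and 0 lower in scrambled cells. Within the ATF4 branch these were 1 higher and 2 lower, and 3 higher and 0 lower in scrambled cells. Within the 21 genes of the ER branch they were 7 higher and 0 lower, and 9 higher and 0 lower in scrambled cells. The matching shares over all genes at this unadjusted threshold are not given here. The called genes were in the ER branch, and the 0 of 23 called in the ATF4 branch is near the share over all genes. With 1 library left out, Aldh18a1 was called higher in siCYP1B1 cells in 4 settings (without scrambled vehicle 1 or 3, siCYP1B1 vehicle 1 or siCYP1B1 16aOHE 1; log2 0.14 to 0.16) and Aldh1l2 in scrambled cells in 1 (without scrambled vehicle 2; 0.34, adjusted p = 0.0326). The medians over the ATF4 branch were 0.016 in siCYP1B1 cells and 0.052 in scrambled cells, and over the ER branch 0.057 and 0.069, beside -0.007 and 0.003 over all genes. The mesothelial and epithelial markers summed to 3500 to 3644 CPM with 16aOHE in siCYP1B1 cells and 4453 to 4748 CPM in scrambled cells, and the fibroblast and pericyte markers to 4602 to 4799 CPM and 5800 to 6190 CPM. All 4 ranges lay between those with E2 and those with vehicle given above, and their part in the results was not tested. Dnajb9, Edem1 and Ern1 were called in both siRNAs. Dnajb9 rose by 0.24 (adjusted p = 0.00574) in siCYP1B1 cells and 0.24 (adjusted p = 0.00826) in scrambled cells, Ern1 by 0.31 (adjusted p = 0.00643) and 0.29 (adjusted p = 0.0113), and Edem1 by 0.18 (adjusted p = 0.0027) and 0.12 (adjusted p = 0.0403). Sdf2l1 was called in siCYP1B1 cells only (log2 0.19, adjusted p = 0.0303), with a difference of 0.11 (95% interval 0.0013 to 0.21) in scrambled cells, and the test of the difference between siRNAs did not call it. Each scrambled call was lost in some other setting, whereas the siCYP1B1 calls of Ern1 and Edem1 were kept in all. In scrambled cells Dnajb9 was lost without scrambled 16aOHE 2 or scrambled vehicle 3 (adjusted p up to 0.0535), Ern1 without scrambled 16aOHE 1 or scrambled vehicle 3 (adjusted p up to 0.0931), and Edem1 in 12 of the 24 other settings, among them without scrambled 16aOHE 1, 2 or 3 or scrambled vehicle 1, 2 or 3 (adjusted p up to 0.206). In siCYP1B1 cells Dnajb9 was lost in a fit of the compared groups alone (adjusted p up to 0.0513) and Sdf2l1 without siCYP1B1 16aOHE 2 or 3 or siCYP1B1 vehicle 1 or 2, in a fit of the compared groups alone or without the variance trend (adjusted p up to 0.16).

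For Atf4 the 16aOHE difference from vehicle was 0.02 (95% interval -0.09 to 0.12) in siCYP1B1 cells and 0.07 (-0.03 to 0.18) in scrambled cells. In scrambled cells Aldh1l2 and Trib3 had intervals above 0 without being called, at 0.25 (0.09 to 0.42, adjusted p = 0.0947) and 0.22 (0.06 to 0.39, adjusted p = 0.147). The interval stayed within 0.3 of 0 on the log2 scale for 20 of 23 ATF4-branch genes in siCYP1B1 cells (all but Cbs, Phgdh and Trib3) and for 19 of 23 in scrambled cells (all but Aldh1l2, Cbs, Pycr1 and Trib3). Hspa5 gave 0.09 (adjusted p = 0.155) and 0.10 (adjusted p = 0.153) and was not called.

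The 2 estrogens were then compared directly, as 1 pair of compounds at the same dose and time in each siRNA. In structure, 16aOHE has a hydroxyl group at a position where estradiol has none, and a keto group where estradiol has a hydroxyl. In siCYP1B1 cells 18 of 44 genes were called lower and 4 higher with 16aOHE than with E2 (18.3% of all genes, 11.8% lower and 6.59% higher). In scrambled cells 17 were called lower and 4 higher (18.4% of all genes, 11.6% lower and 6.78% higher). The E2 libraries are the same as in the comparisons with vehicle, so the 2 sets of values are not independent. The ATF4 branch held 16 of the 18 lower genes in siCYP1B1 cells and 14 of the 17 in scrambled cells, with 0 higher by limma in either. At an unadjusted p under 0.05 the higher count was 0 in siCYP1B1 cells and 1 in scrambled cells (Cebpg). Its median was -0.332 in siCYP1B1 cells and -0.272 in scrambled cells, beside -0.038 and -0.028 over all genes. The widest differences were in Aldh1l2 (-0.85 in siCYP1B1 cells, adjusted p = 3.98e-07, and -0.72 in scrambled cells, adjusted p = 3.83e-06), Chac1 (-0.80 and -0.72), Trib3 (-0.77 and -0.61), Nupr1 (-0.68 and -0.59) and Cth (-0.68 and -0.40). Asns, Pck2 and Ddit3 differed by -0.56, -0.52 and -0.53 in siCYP1B1 cells and by -0.42, -0.38 and -0.47 in scrambled cells, and Atf4 by -0.33 (adjusted p = 0.000114) and -0.28 (adjusted p = 0.000664). Pycr1 was called in siCYP1B1 cells (-0.54, adjusted p = 0.00115), with -0.16 (95% interval -0.38 to 0.06) in scrambled cells.

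Several ER-branch genes went the other way between the estrogens. Hspa5 was higher with 16aOHE than with E2, by 0.14 (adjusted p = 0.0124) in siCYP1B1 cells and 0.11 (adjusted p = 0.0438) in scrambled cells. Dnajc3, the J protein P58IPK, was higher by 0.13 (adjusted p = 0.0163) and 0.13 (adjusted p = 0.0175). Calr was higher in scrambled cells (0.17, adjusted p = 0.00175), with 0.08 (95% interval 0.01 to 0.16) in siCYP1B1 cells. In siCYP1B1 cells the Hspa5 call was lost without siCYP1B1 16aOHE 2 or 3 or in a fit of the compared groups alone (adjusted p up to 0.0749), and in scrambled cells it was lost in 16 of the 24 other settings, among them without scrambled 16aOHE 1, 2 or 3 or scrambled E2 1, 2 or 3 (adjusted p up to 0.341). The Dnajc3 call was lost without siCYP1B1 16aOHE 2 or 3 or siCYP1B1 E2 1 or in a fit of the compared groups alone (adjusted p up to 0.113) in siCYP1B1 cells, and without scrambled 16aOHE 2 or 3 or scrambled E2 1 or 2 (adjusted p up to 0.0683) in scrambled cells. The Calr call was lost after quantile normalization (adjusted p up to 0.0816). With median-of-ratios scaling, the ER branch had 9 genes higher and 2 lower in siCYP1B1 cells, and 10 higher and 1 lower in scrambled cells, beside 4 and 2, and 4 and 3, with the deposited scaling. Dnajb9 was lower with 16aOHE than with E2, at -0.27 (adjusted p = 0.000844) in siCYP1B1 cells and -0.20 (adjusted p = 0.00768) in scrambled cells, where the call was lost without scrambled 16aOHE 3 (adjusted p up to 0.0502). For Ern1 and Edem1 the estrogens gave intervals of -0.28 to -0.01 and -0.04 to 0.10 in siCYP1B1 cells and -0.17 to 0.10 and -0.11 to 0.02 in scrambled cells. Among the called genes, libraries of the 2 estrogens overlapped for Atf6 and Mthfd2 in scrambled cells. The Atf6 call was lost without scrambled 16aOHE 1 or 3 or scrambled E2 2 or 3, after quantile normalization, after median-of-ratios scaling or without the variance trend (adjusted p up to 0.135), and the Mthfd2 call in 10 of the 24 other settings, among them without scrambled 16aOHE 2 or 3 or scrambled E2 1 or 3 (adjusted p up to 0.195).

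siCYP1B1 raised part of the ATF4 branch in every treatment, including 4 to 6 of the 6 serine and one-carbon enzymes, and lowered a few ER-branch genes. With 16aOHE, 10 of 44 genes were called higher and 5 lower in siCYP1B1 than in scrambled cells (19.7% of all genes, 10.4% higher and 9.31% lower). With E2, 15 were higher and 5 lower (21.2% of all genes, 11.4% and 9.8%), and with vehicle, 12 were higher and 4 lower (20.6% of all genes, 11.5% and 9.12%). Averaged over the 3 treatments, 23 were higher and 7 lower (44.7% of all genes, 26.5% and 18.2%). The ATF4 branch held 9, 14 and 11 of the higher genes with 16aOHE, E2 and vehicle and 18 of the 23 in the average, with 0 lower in any by limma and 0 lower at an unadjusted p under 0.05. Its medians were 0.112, 0.232 and 0.155, and 0.129 in the average, beside 0.014, 0.028, 0.028 and 0.026 over all genes. The medians over the ER branch were -0.043, -0.053 and -0.034, and -0.042 in the average. The 3 treatments share no libraries in this comparison. Aldh1l2, Asns, Atf4, Atf5, Gdf15, Psat1, Psph, Shmt2 and Trib3 were higher in all 3, and Dnajc3 and Edem1 were lower in all 3. The matching overlap over all genes is not given here. Summed marker levels moved with the siRNA as well. In each treatment the mesothelial and epithelial, fibroblast and pericyte, endothelial and smooth muscle sums were lower in every siCYP1B1 library than in every scrambled library. With 16aOHE the 8 endothelial markers summed to 165 to 169.9 CPM in siCYP1B1 cells and 240.4 to 246 CPM in scrambled cells, and the 8 smooth muscle markers to 1028 to 1060 CPM and 1083 to 1111 CPM. Their part in the results was not tested.

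All 6 enzymes of serine and one-carbon metabolism were higher in siCYP1B1 cells in the averaged comparison. Aldh1l2 differed by 0.41 with 16aOHE, 0.54 with E2 and 0.65 with vehicle on the log2 scale (average 0.53, adjusted p = 1.04e-08). Shmt2 averaged 151 ± 6.67 CPM in siCYP1B1 and 119 ± 5.61 CPM in scrambled cells with 16aOHE, 178 ± 0.818 and 136 ± 4.54 CPM with E2, and 151 ± 8.53 and 117 ± 2.13 CPM with vehicle (SD, n = 3 each; average log2 0.37, adjusted p = 2.58e-10). Psat1, which gave no E2 call, averaged 279 ± 9.38 and 245 ± 3.69 CPM with 16aOHE, 289 ± 7.40 and 246 ± 5.26 CPM with E2, and 293 ± 14.7 and 249.9 ± 1.66 CPM with vehicle (average log2 0.22, adjusted p = 4.04e-08). These 3 enzymes were thus higher in siCYP1B1 cells within each treatment. Psph, Phgdh and Mthfd2 averaged 0.30, 0.22 and 0.22. Phgdh and Mthfd2 were not called with 16aOHE, where their intervals were -0.06 to 0.27 and 0.03 to 0.29. With vehicle the Phgdh call was lost in 13 of the 24 other settings, among them without siCYP1B1 vehicle 1, 2 or 3 or scrambled vehicle 1, 2 or 3 (adjusted p up to 0.14), and the Mthfd2 call without siCYP1B1 vehicle 1 or 3 or scrambled vehicle 1 or 3, after quantile normalization, after median-of-ratios scaling or without the variance trend (adjusted p up to 0.13). With E2 the Phgdh call was lost without scrambled E2 2 (adjusted p up to 0.0605).

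Among the transcription factors, Atf5 had the widest siRNA difference, at 0.42 with 16aOHE, 0.50 with E2 and 0.47 with vehicle (average 0.47, SE 0.0273, adjusted p = 1.91e-11). Atf4 itself differed by 0.15 (adjusted p = 0.0476), 0.20 (adjusted p = 0.0076) and 0.20 (adjusted p = 0.00792) in the same order, and by 0.18 in the average (adjusted p = 3.76e-05). With vehicle its call was lost without scrambled vehicle 3 (adjusted p up to 0.0584), and with 16aOHE in 13 of the 24 other settings, among them without siCYP1B1 16aOHE 1, 2 or 3 or scrambled 16aOHE 1 or 2 (adjusted p up to 0.147). Ddit3, Cebpb and Cebpg were called in the average at 0.11, 0.11 and 0.12. Nupr1 gave 0.09 (95% interval -0.01 to 0.18) and Atf3 -0.03 (-0.12 to 0.06), neither called. Trib3 differed by 0.27 with 16aOHE (adjusted p = 0.0186; lost without siCYP1B1 16aOHE 3 or scrambled 16aOHE 1 or in a fit of the compared groups alone, adjusted p up to 0.0962), 0.43 with E2 and 0.36 with vehicle. Gdf15 differed by 0.23 with 16aOHE (lost without siCYP1B1 16aOHE 1 or scrambled 16aOHE 1, adjusted p up to 0.134), 0.29 with E2 and 0.34 with vehicle. Chac1, among the widest in the E2 comparisons, gave 0.07, 0.15 and 0.14 and was called in the average alone (0.12, adjusted p = 0.0498), a call lost in 19 of the 23 other settings, most of them with 1 library left out (adjusted p up to 0.116).

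Asns was higher in siCYP1B1 cells in every treatment, by 0.26 with 16aOHE, 0.40 with E2 and 0.32 with vehicle (average 0.33, adjusted p = 2.87e-08). Cth and Aldh18a1 were called with E2 (0.30 and 0.16) and in the average (0.13 and 0.12). Pck2, Pycr1 and Cbs were not called in any treatment or in the average, where their intervals were -0.0049 to 0.10, -0.14 to 0.11 and -0.14 to 0.22. In the ER branch Edem1 was the most lowered with E2, with vehicle and in the average, and with 16aOHE it was close to Dnajb9. Its siCYP1B1 libraries lay below the scrambled libraries of the same treatment, with differences of -0.18 with 16aOHE, -0.26 with E2 and -0.24 with vehicle (average -0.23, adjusted p = 6.57e-09). Dnajb9 fell with 16aOHE (-0.19; lost without siCYP1B1 16aOHE 1 or scrambled 16aOHE 1 or 2 or in a fit of the compared groups alone, adjusted p up to 0.0682) and vehicle (-0.19), and with E2 its difference was -0.12 (95% interval -0.22 to -0.01). Dnajc3 fell by 0.12 in the average (adjusted p = 9.26e-05). Its call was lost without siCYP1B1 16aOHE 1 or scrambled 16aOHE 2 or 3, in a fit of the compared groups alone or without the variance trend (adjusted p up to 0.114) with 16aOHE, without siCYP1B1 E2 1 or scrambled E2 3, in a fit of the compared groups alone or without the variance trend (adjusted p up to 0.152) with E2 and without siCYP1B1 vehicle 1 or 3 or scrambled vehicle 3 (adjusted p up to 0.0766) with vehicle. Xbp1, Pdia4, Sel1l and Hsp90b1 were also called lower in the average, at -0.14, -0.09, -0.09 and -0.07. Herpud1 (0.12), Sdf2l1 (0.11), Creld2 (0.09), Manf (0.06) and Calr (0.05) were called higher in the average. The averaged call of Creld2 was lost after quantile normalization or after median-of-ratios scaling (adjusted p up to 0.0616), that of Manf in 10 of the 23 other settings, most of them with 1 library left out (adjusted p up to 0.173), and that of Calr in 15 of the 23 other settings, most of them with 1 library left out (adjusted p up to 0.219). Hspa5 gave -0.03 (95% interval -0.08 to 0.01) and was not called.

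**Figure D4:**
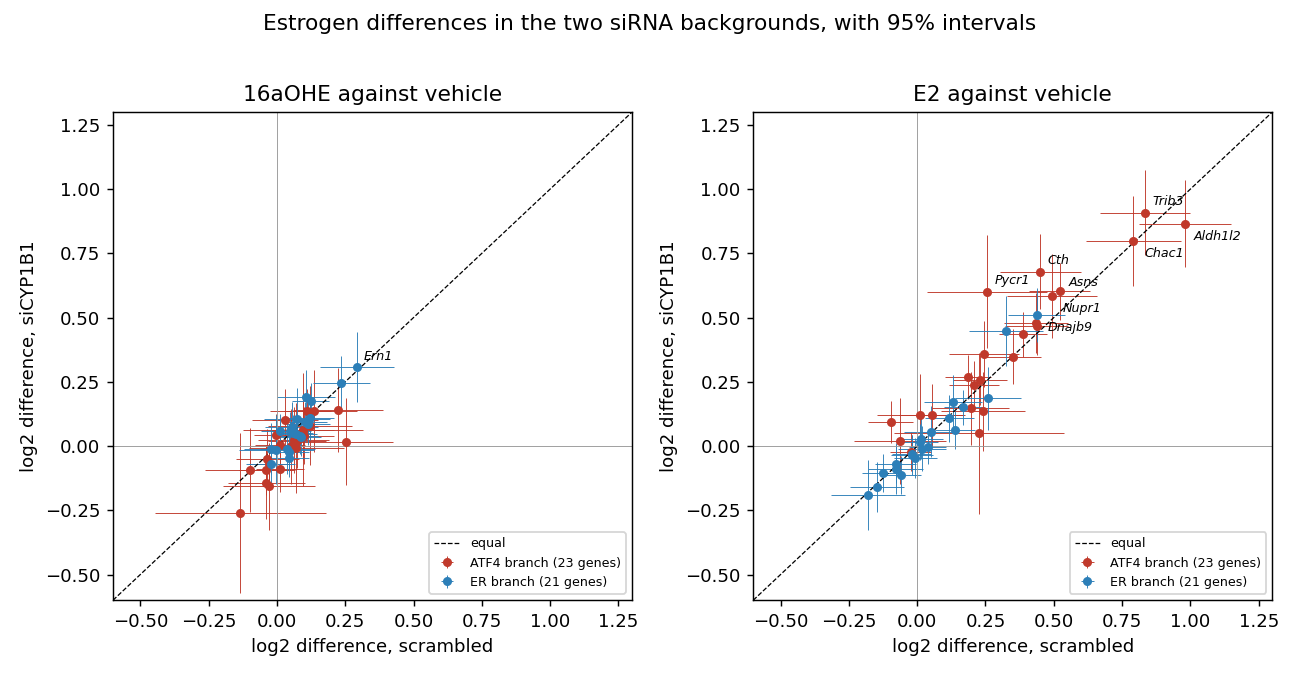
Log2 difference from vehicle of each of the 44 genes in scrambled cells (horizontal) and siCYP1B1 cells (vertical), for 16aOHE and for E2, with the 23 ATF4-branch genes in red and the 21 ER-branch genes in blue; the diagonal marks equal differences. With E2 the ATF4-branch genes extend to 0.98 (Aldh1l2, scrambled) and 0.91 (Trib3, siCYP1B1), and with 16aOHE the widest difference is 0.31 (Ern1, siCYP1B1).

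Whether siCYP1B1 altered the response to an estrogen was tested as an interaction. Cells with siCYP1B1 still held most of the Cyp1b1 RNA of scrambled cells, as given above. The interaction therefore does not describe cells without Cyp1b1. No gene of the 11835 was called for either estrogen by limma (0% of all genes), and none of the 44 was. At an unadjusted p under 0.05 the interaction held 470 genes for E2 (3.97%), with Cebpg, Cth and Pycr1 among the 44, and 596 for 16aOHE (5.04%), with 0 of the 44. The smallest adjusted p among the 44 was 0.998 for E2 and 0.966 for 16aOHE. The widest E2 interaction was that of Pycr1, 0.34 (95% interval 0.04 to 0.65), followed by Cth at 0.23 (0.02 to 0.44) and Cebpg at 0.19 (0.07 to 0.31). For Atf4, the E2 interaction was 0.00069 (-0.15 to 0.15) and the 16aOHE interaction -0.05 (-0.20 to 0.10). The widest 16aOHE interaction was that of Aldh1l2, -0.24 (-0.48 to 0.0012). Interaction intervals stayed within 0.3 of 0 for 13 of 23 ATF4-branch genes and 20 of 21 ER-branch genes with E2, and for 16 of 23 and 21 of 21 with 16aOHE. A difference in response larger than that was therefore not within the interval for these genes, and for the others the interval reached past 0.3.

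Related genes outside the 44 were counted on lists chosen by function, with earlier results of these data known. The counts are therefore not an independent check of the 44. Of 28 other ATF4 target genes, 20 were called higher and 0 lower with E2 in siCYP1B1 cells, and 17 higher and 0 lower in scrambled cells, with medians of 0.209 and 0.186. Over all genes 16.7% were higher and 10.8% lower in siCYP1B1 cells, and 18.6% and 11.4% in scrambled cells, and the lists below are read against these shares. None of the 28 was lower at an unadjusted p under 0.05 in either. Stc2, a secreted glycoprotein, averaged 22.1 ± 2.16 CPM with E2 and 12.3 ± 1.5 CPM with vehicle in siCYP1B1 cells, and 17.7 ± 0.818 CPM with E2 and 5.60 ± 0.222 CPM with vehicle in scrambled cells (SD, n = 3 each; scrambled log2 1.5, adjusted p = 3.57e-10). In scrambled cells the lipoprotein receptor Vldlr rose by 0.81, the cystine transporter Slc7a11 by 0.64 and the autophagy receptor Sqstm1 by 0.39. With 16aOHE, 1 of the 28 was called higher and 3 lower in siCYP1B1 cells and 1 higher and 2 lower in scrambled cells. Against E2, 18 were lower with 16aOHE in siCYP1B1 cells and 19 in scrambled cells, with 0 higher by limma in either and 0 higher at an unadjusted p under 0.05. Of the 15 genes for kinases, phosphatases and eIF2 subunits upstream of ATF4, 1 was called higher and 2 lower with E2 in each siRNA, and in scrambled cells the higher one was Eif2ak4, the amino acid sensor GCN2, at 0.21. Of 17 further genes of one-carbon and serine metabolism, 2 were higher and 4 lower with E2 in siCYP1B1 cells, and 2 were higher and 5 lower in scrambled cells, with medians of -0.048 and -0.051. The higher counts of these 2 lists were below the share over all genes. Aldh1l1, the cytosolic relative of Aldh1l2, rose by 0.45 in scrambled cells, while the cytosolic Shmt1 was lower at -0.22.

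Further ER genes were counted in the same way. Of 25 other ER folding and oxidation genes, 10 were higher and 1 lower in siCYP1B1 cells, and 9 higher and 1 lower in scrambled cells. Ero1l, an oxidase that supports disulfide formation, rose by 0.52 in scrambled cells (adjusted p = 1.63e-09), while the collagen chaperone Fkbp10 was lower at -0.28. Of 23 other genes of ER-associated degradation, 9 were higher in siCYP1B1 cells and 8 in scrambled cells, with 0 lower by limma in either and 1 and 0 lower at an unadjusted p under 0.05. Erlec1 and Edem2, which handle misfolded glycoproteins, rose by 0.48 and 0.43 in scrambled cells. Of 22 translocon and signal peptidase genes, 8 were higher and 0 lower by limma in each siRNA (0 lower at an unadjusted p under 0.05), among them Sec61a1, a channel subunit, at 0.19 in scrambled cells. Of 15 other sensor and activation genes, 3 were higher and 2 lower in siCYP1B1 cells, and 4 higher and 2 lower in scrambled cells, and Wfs1, the Wolfram syndrome gene, was among the higher, at 0.35 in scrambled cells.

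In the averaged siRNA comparison, 18 of the 28 other ATF4 targets were called higher in siCYP1B1 cells and 0 lower by limma or at an unadjusted p under 0.05 (median 0.101), among them Stc2 (0.62, adjusted p = 1.15e-08), the translation repressor Eif4ebp1 (0.36), the cysteinyl-tRNA synthetase Cars (0.33) and Sesn2 (0.32), a leucine sensor of the mTORC1 pathway. Stc2 averaged 19.0 ± 0.310 CPM in siCYP1B1 and 12.8 ± 1.81 CPM in scrambled cells with 16aOHE. Of the 15 genes upstream of ATF4, 9 were higher and 3 lower, and of the 17 further one-carbon genes, 9 were higher and 0 lower (1 lower at an unadjusted p under 0.05), led by the serine transporter Sfxn1 (0.30). Among the 25 ER folding genes, 4 were higher and 10 lower (median -0.058), among them Fkbp14 at -0.40 and Dnajc10, a disulfide reductase, at -0.27, with Ero1l higher at 0.28. The counts were 5 higher and 4 lower of 23 for degradation, 5 and 6 of 15 for sensors, and 3 and 5 of 22 for the translocon, beside 26.5% higher and 18.2% lower over all genes.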

How the data were processed

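RNA sequencing was measured in 18 libraries of 6 groups, assigned from the sample labels. The authors deposited 1 table of CPM values for 15288 genes, scaled to the reads assigned to the listed genes, to which an offset of 0.0001 had been added. Per the submitters' processing notes, TopHat2, Partek and the mm10 build were used, with no versions, and strand use and filters are not stated there. Positions come from the same table and are written 1-based with the stop reduced by 1, since that equalled the RefSeq gene end for 56.7% of 14902 matched symbols (4.13% as listed).

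Low values gave whole reads for 93.7% to 94.6% of values within 0.1 reads, so the values were not treated as counts. From these steps 1 CPM was estimated as 14.1 to 38.5 reads, and precision at low levels is limited by this.

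Values were analysed as log2(CPM + 1), on which differences understate the change of genes near 1 CPM, for the 11835 genes whose mean over the libraries reached 1 CPM (3453 did not). limma 3.58.1 in R 4.3.3 (lmFit, contrasts.fit, eBayes with trend) fitted 1 coefficient per group over all 18 libraries. Adjusted p-values are limma's, by the Benjamini-Hochberg method over all genes within each of 12 comparisons, and a gene is called at an adjusted p under 0.05. The steps were tested on simulated data. Alternatives were a pseudocount of 0.1 CPM, no filter, quantile and median-of-ratios scaling, no variance trend, the compared groups alone, and leaving out each library.

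The 46 genes, the lists and the roles were chosen with earlier results of these data known. Values in every library are given for genes called with a log2 difference of at least 0.5 in any comparison, and also for Atf4, Ern1, Edem1 and Hspa5, which were chosen after their values were seen. From each further list at most 4 genes are named, by the size of their called difference.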

Additional observations from a re-analysis of the deposited data

How the results depend on the processing

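No call of the 44 genes reversed direction under any of the alternatives run. Of 180 calls over the comparisons, 123 were kept under every alternative and 57 were lost under at least 1. In the ATF4 branch, the E2 calls were kept throughout for 15 of 15 genes in siCYP1B1 cells and 14 of 16 in scrambled cells, whereas in the ER branch this held for 3 of 9 and 4 of 9. Fitted on the compared groups alone, 16aOHE against vehicle in siCYP1B1 cells gave 2 called genes instead of 4, and siCYP1B1 against scrambled with 16aOHE gave 9 instead of 15. The cause was not tested.

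Leaving out 1 library at a time, the called genes numbered 3 to 6 (siCYP1B1) and 0 to 4 (scrambled) for 16aOHE against vehicle, with 0 without scrambled vehicle library 3 and 1 without scrambled 16aOHE library 1 or 2. For E2 against vehicle they numbered 18 to 24 and 21 to 26, and for 16aOHE against E2 17 to 23 and 15 to 22. For siCYP1B1 against scrambled they numbered 9 to 16 with 16aOHE (9 without scrambled 16aOHE library 1), 16 to 22 with E2, 10 to 16 with vehicle (10 without scrambled vehicle library 3) and 26 to 30 in the average.

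Scaling moved the split of all called genes. With E2 in scrambled cells 62% of them were higher with the deposited scaling, 51% with quantile and 46.9% with median-of-ratios scaling, and for 16aOHE against E2 36.8%, 49.4% and 54.6%. With median-of-ratios scaling the genes of the 44 called with E2 in scrambled cells were 19 higher and 5 lower, and those for 16aOHE against E2 11 higher and 14 lower. For the interaction with 16aOHE, 12 genes of the table were called when only the compared groups were fitted and 15 without scrambled E2 library 2, none of them among the 44.

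No paired analysis was possible because the labels carry no replicate numbers. Genes at low levels, such as Cbs (mean 3.11 CPM) and Fgf21 (at most 0.283 CPM), are limited by depth.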
